A study of Homo sapiens with 3 samples.

Results

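KISS1 and 7 other genes known as metastasis suppressors (KISS1R, CD82, BRMS1, NME1, MAP2K4, PEBP1 and ARHGDIB) were followed across all 3 arrays of the series. They were taken by symbol, through the probe sets that the platform annotation pairs with exactly 1 gene. All 8 genes were found, by 14 of the 41097 probe sets with 1 symbol, out of 19775 genes. The RNA came from MDA-MB-231, an established human breast cancer line of invasive, mesenchymal-like character that is usually classed as lacking the oestrogen receptor alpha (ERα). Before treatment the cells spent 4 h in RPMI medium whose 10% serum had been stripped of steroids with charcoal. Treatment lasted 3 h in the same kind of medium. The 3 groups, with 1 array each, received the vehicle (0.1% ethanol), the oestrogen estradiol at 1 µM, or 1 µM of ERα17p, a peptide derived from ERα. An ethanol percentage is given for the vehicle group only, and what the peptide was dissolved in is not stated in the labels. No group has a replicate, so no difference has a replicate check or a p-value, and array and treatment cannot be told apart.

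Metastasis suppressor genes are defined by what their products do: when present they reduce the spread of tumour cells, with little effect on the growth of the primary tumour. KISS1 encodes a secreted precursor that is cut into kisspeptins, and these act on KISS1R, a Gq-coupled receptor that also controls the reproductive axis. The other members act at the membrane (CD82, a tetraspanin), in chromatin (BRMS1, a subunit of SIN3-HDAC complexes), in kinase cascades (MAP2K4 and PEBP1), on nucleotides (NME1) and in the cytosol (ARHGDIB).

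The upstream sequences of the 4 members that differed by at least 1.5-fold between the vehicle array and both treated arrays are shown to place those genes. Each is the 250 bases before a transcription start in RefSeq, GRCh38.p14, written 5′ to 3′ on the gene's strand. Capitals mark a GC box (GGGCGG), the TATA box (TATAAA), the core of a cyclic AMP response element (TGACGT), an AP-1 site (TGANTCA) and a half-site of the oestrogen response element (GGTCA), on either strand. They lie at chr1:204196492-204196741, minus strand, for KISS1, at chr12:14951152-14951401, minus strand, for ARHGDIB, at chr11:66345105-66345354, minus strand, for BRMS1, and at chr17:12020627-12020876, plus strand, for MAP2K4.
KISS1: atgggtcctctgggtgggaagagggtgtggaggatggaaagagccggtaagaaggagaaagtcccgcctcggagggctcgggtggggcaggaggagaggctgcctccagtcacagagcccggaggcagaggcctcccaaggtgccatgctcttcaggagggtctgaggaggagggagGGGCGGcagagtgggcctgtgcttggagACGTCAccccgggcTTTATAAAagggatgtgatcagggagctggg
ARHGDIB: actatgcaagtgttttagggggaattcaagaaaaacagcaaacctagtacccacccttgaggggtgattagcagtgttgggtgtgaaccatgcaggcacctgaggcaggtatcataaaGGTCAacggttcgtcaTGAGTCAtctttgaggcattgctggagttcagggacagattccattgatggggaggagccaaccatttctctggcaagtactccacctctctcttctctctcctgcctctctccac
BRMS1: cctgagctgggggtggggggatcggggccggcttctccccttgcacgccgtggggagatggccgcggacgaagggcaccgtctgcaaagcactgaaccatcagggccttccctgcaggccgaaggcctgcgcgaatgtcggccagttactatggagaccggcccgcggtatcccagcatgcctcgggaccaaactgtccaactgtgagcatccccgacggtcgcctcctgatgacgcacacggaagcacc
MAP2K4: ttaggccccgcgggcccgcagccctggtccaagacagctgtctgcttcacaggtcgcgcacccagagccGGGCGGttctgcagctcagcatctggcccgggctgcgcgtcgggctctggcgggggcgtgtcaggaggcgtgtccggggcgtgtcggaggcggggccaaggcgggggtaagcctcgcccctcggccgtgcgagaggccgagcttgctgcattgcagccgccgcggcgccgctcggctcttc

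The KISS1 window held 1 GC box, 1 core of the cyclic AMP response element and a TATA box whose letters match on both strands and overlap. Among 35116 RefSeq windows of the same length, 42.6% held a GC box, 7.10% the cyclic AMP response core and 10.7% the TATA letters. ARHGDIB had 3 listed starts. The window shown is that of the start farthest upstream and held 1 AP-1 site and 1 oestrogen half-site, letters found in 6.57% and 32.6% of all windows. The window of the next start overlaps it and held the same 2 motifs, whereas the window of the start farthest downstream held none of the 5 motifs and 0 CpG dinucleotides. MAP2K4 held 1 GC box, and none of the 5 motifs was in the BRMS1 window. In the windows shown, CpG dinucleotides numbered 8 in KISS1, 2 in ARHGDIB, 21 in BRMS1 and 30 in MAP2K4, against a median of 11 over all windows. RefSeq windows were matched for 7 of the 8 members, all but KISS1R. The letters are a description of these windows, and no binding was measured.

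The deposited log2 values had each been set relative to a zero level of the probe set, and what that zero stands for is not described. An expression level is therefore unknown for every gene, and only differences between arrays can be read. The vehicle array stood apart from the treated arrays. The SD of its values was 0.494, against 0.260 with estradiol and 0.241 with ERα17p. Probe sets of labelling spikes (medians of 27) were 2.03 and 2.04 higher on the estradiol and ERα17p arrays than with vehicle. Such spikes are bacterial transcripts meant to be added before labelling. The 27 include 3 probe sets of trp, which by themselves differed by 0.10 and 0.18. Whether trp was among the spikes added is not known here. Hybridisation spikes differed by -0.74 and -0.93 (18 probe sets). The 3 probe sets of 18S ribosomal RNA were at 0.11 and 0.67, and at 0.53 between the treated arrays. Without levels, the cell line could not be checked against its markers. Of 6 markers of mesenchymal-like breast lines 1 was at least 1.5-fold higher with estradiol (16.7%) and 2 with ERα17p (33.3%), and 0 were lower. SNAI2 was at 1.84 and 2.08, while VIM and AXL were below 0 in both, and the medians were 0.27 and 0.39. Of 9 luminal markers 1 was lower in each (KRT18, -0.84 and -0.87, 11.1%) and 0 higher. CDH1 and GATA3 were above 0 in both, and the luminal medians were -0.084 and 0.033. Of all genes, 10.6% were higher and 8.42% lower with estradiol, and 9.56% and 8.82% with ERα17p. None of 6 markers of stroma and endothelium passed 1.5-fold.

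KISS1 differed most among the 8 genes. Its only probe set, 205563_at, stood at 3.30 with vehicle, at -0.019 with estradiol and at -0.020 with ERα17p. The vehicle value was the 7th farthest above its own zero among the 54675 probe sets of that array, which ranks deviations and not levels, and both treated arrays lay near the deposited zero. KISS1 was thus -3.32 from vehicle on the log2 scale with estradiol and -3.32 with ERα17p, both 10.0-fold lower, and was the 4th lowest of 19775 genes in either comparison. Between the treated arrays it differed by -0.0013. In bulk RNA, fewer cells with KISS1 transcripts and less KISS1 RNA per cell cannot be told apart. Quantile normalisation forces the 3 arrays to a common distribution, which narrows the vehicle array and widens the treated arrays. After it the KISS1 differences from vehicle were -2.05 and -2.06.

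**Figure D1:**
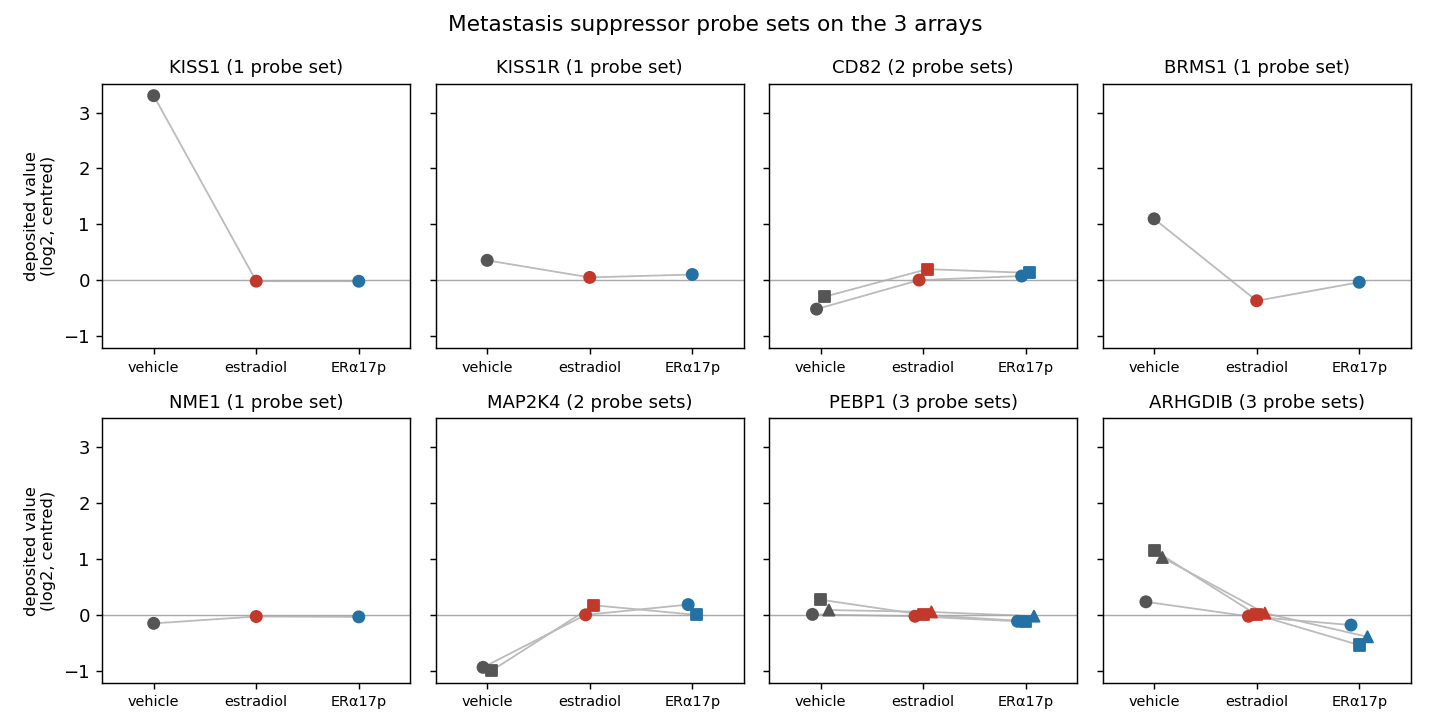
Deposited value (log2, centred per probe set) of each of the 14 member probe sets with vehicle, estradiol and ERα17p, 1 array each. Each marker shape is a probe set, and grey lines join its values. KISS1 stands at 3.30 on the vehicle array and near 0 on the others. BRMS1 and 2 of 3 ARHGDIB probe sets are above 1 on the vehicle array, and both MAP2K4 probe sets are at -0.94 or below there.

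KISS1R, the receptor of kisspeptins, was read by 1 probe set, 242517_at. Its value was 0.35 with vehicle, 0.048 with estradiol and 0.10 with ERα17p. KISS1R was -0.31 and -0.25 from vehicle, a smaller difference than 1.5-fold. Of all genes, 42.4% and 48.7% were at least as far from 0 in the same comparisons, so its differences were of middling size. With their sign, they ranked 4029 and 4796 from the lowest of 19775 genes. The ligand and its receptor thus had differences of unlike size on the same arrays.

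Of the 8 members, 3 were at least 1.5-fold lower with estradiol than with vehicle (KISS1, BRMS1 and ARHGDIB), 1 was higher (MAP2K4) and 4 were within 1.5-fold. The background was wide: 8.42% of all genes were that much lower and 10.6% higher. With ERα17p the same 3 members were lower and the same 1 higher, against a background of 8.82% lower and 9.56% higher. The members had been chosen with these differences known, so nothing is read from their share. The median member difference was -0.17 with estradiol and -0.19 with ERα17p, beside 0.0022 and 0.0021 over all genes. Both comparisons used the same vehicle array, and that array alone was the highest or the lowest of the 3 in all 14 member probe sets, as it was in 77.4% of the 41097. It was the farthest from the deposited zero in 13 of the 14, against 45.4% of all; the exception was PEBP1 probe set 205353_s_at. The part of the vehicle array's spread in these differences was not tested.

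**Figure D2:**
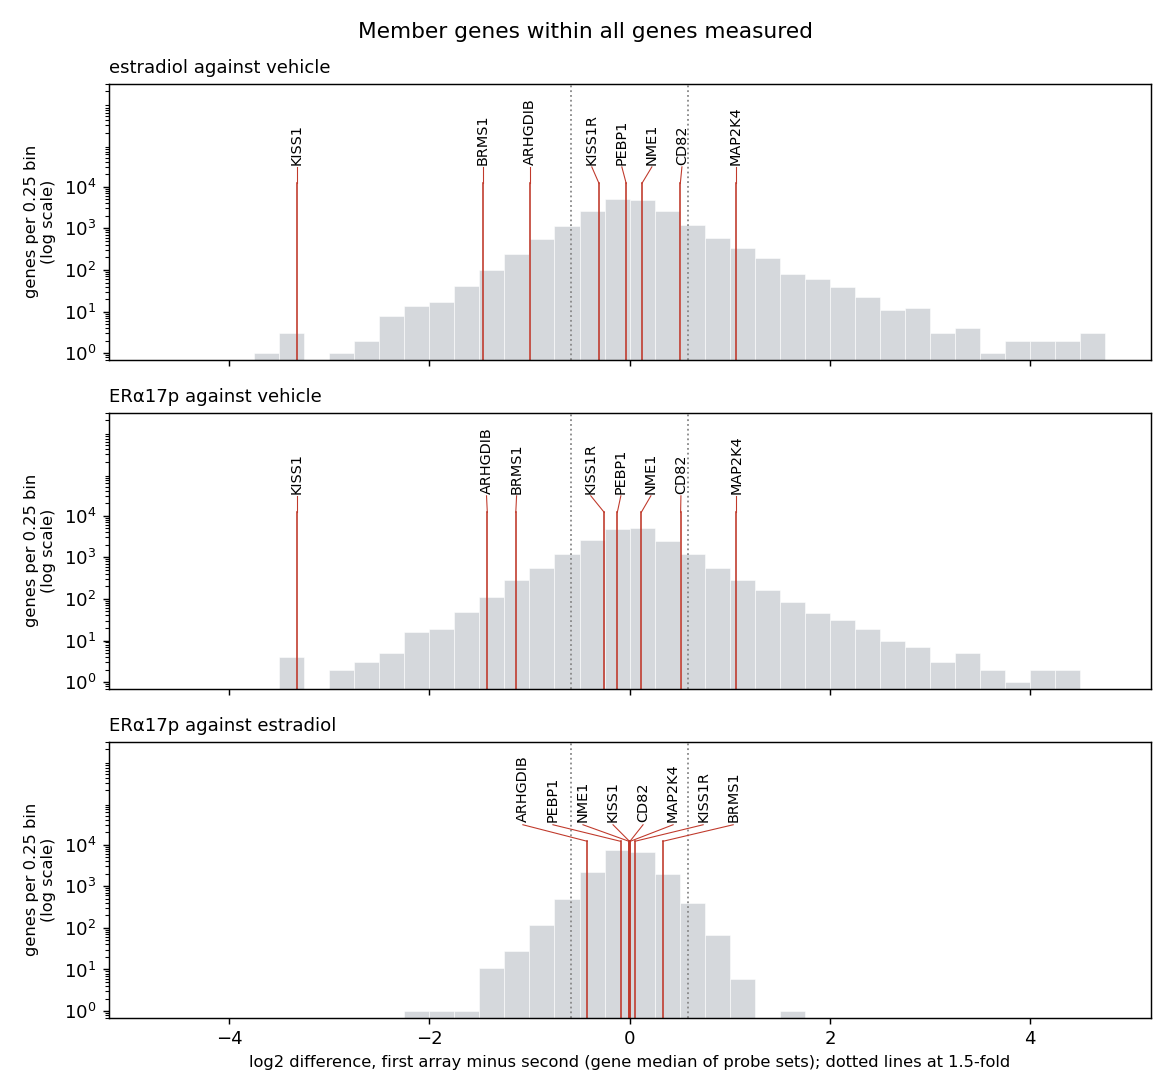
Log2 difference of each member (red lines, median of its probe sets) within the histogram of all 19775 genes, for estradiol against vehicle, ERα17p against vehicle and ERα17p against estradiol. The vertical axis counts genes per bin on a log scale, and dotted lines mark 1.5-fold. KISS1 lies at -3.32 in both comparisons with vehicle, and all 8 members lie between the dotted lines in the direct comparison.

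BRMS1, which joins SIN3-HDAC complexes that repress transcription, was read by 1 probe set, 215631_s_at. Its value was 1.10 with vehicle, -0.37 with estradiol and -0.039 with ERα17p. Estradiol was -1.47 from vehicle (2.77-fold lower, the 96th lowest gene) and ERα17p -1.14 (2.20-fold lower, the 305th lowest). The estradiol array was the lowest of the 3, by 0.33 below the ERα17p array. After quantile normalisation the differences from vehicle were -1.14 and -0.76. The suffix _s_at marks a probe set that can match several transcripts, and BRMS1 has no other here.

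ARHGDIB encodes a cytosolic regulatory protein that is abundant in blood cells. Probe set 1555812_a_at was at 1.16, 0 and -0.54 with vehicle, estradiol and ERα17p. Probe set 201288_at was at 1.03, 0.030 and -0.39. The third, 1555811_at, was at 0.23, -0.026 and -0.18, the same order of arrays over a smaller range. By the median of the 3, ARHGDIB was -0.998 from vehicle with estradiol, 1.998-fold lower, with probe sets between -1.16 and -0.26. With ERα17p it was -1.42, 2.68-fold lower, with probe sets between -1.70 and -0.42. In each of the 3 probe sets the ERα17p array was the lowest and the vehicle array the highest. After quantile normalisation the difference for estradiol was -0.64 and that for ERα17p -1.19.

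Of 8 measured blood cell markers, given beside ARHGDIB, 1 was higher (CD14, 0.75) and 1 lower (CORO1A, -0.92) with estradiol, with a median of -0.091. Each is 12.5%, beside 10.6% higher and 8.42% lower of all genes. With ERα17p, 1 was higher (LYZ, 0.78, with probe sets at 0.053 and 1.51) and 0 lower, with a median of -0.073. These shares are 12.5% and 0%, beside 9.56% and 8.82%. Summed marker levels cannot be given from centred values.

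MAP2K4, the kinase that activates the stress kinases JNK and p38, was the member with the largest difference in the opposite direction. Probe set 203265_s_at was at -0.94, 0 and 0.18 with vehicle, estradiol and ERα17p. Probe set 203266_s_at was at -1.003, 0.17 and 0. Both were lowest on the vehicle array, and they ordered the treated arrays in opposite ways. The gene was 1.06 higher than vehicle with estradiol (2.08-fold) and 1.06 higher with ERα17p (2.09-fold). Its rank from the top was 682 and 571 of 19775 genes, so many genes lay beyond it. Quantile normalisation gave 0.74 and 0.75.

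CD82, also called KAI1, is a tetraspanin that organises integrins and growth factor receptors in membrane domains. Probe set 203904_x_at was at -0.52, 0 and 0.073 with vehicle, estradiol and ERα17p. Probe set 228910_at was at -0.30, 0.20 and 0.13. Both were lowest on the vehicle array. The gene was 0.51 higher with estradiol and 0.51 higher with ERα17p, 1.42-fold in each, just inside the 1.5-fold limit that corresponds to 0.58 on the log2 scale. The probe sets agreed within 0.49 to 0.52 for estradiol and 0.43 to 0.59 for ERα17p. Over the 10523 genes with 2 or more probe sets, the median SD between a gene's probe sets was 0.33 for estradiol and 0.32 for ERα17p.

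NME1 and PEBP1 showed the smallest differences from vehicle. NME1, also called NM23-H1, is a nucleoside diphosphate kinase. Its 1 probe set, 201577_at, was at -0.15, -0.030 and -0.036 with vehicle, estradiol and ERα17p, which gave 0.12 for each treatment. PEBP1, also called RKIP, slows the ERK cascade. Probe set 205353_s_at was at 0.0075, -0.025 and -0.12. Probe set 211941_s_at was at 0.086, 0.052 and -0.023. The widest, 210825_s_at, was at 0.27, 0 and -0.11. All 3 were lowest on the ERα17p array. The gene median was -0.034 with estradiol and -0.12 with ERα17p, and 91.9% and 72.1% of genes were at least as far from 0.

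Set directly against each other, which leaves out the vehicle array, the treated arrays differed by less than 1.5-fold in all 8 members. Among all genes, 1.29% were at least that much higher with ERα17p than with estradiol and 2.04% lower. ARHGDIB was the farthest, at -0.42 with its 3 probe sets between -0.54 and -0.16. BRMS1 followed at 0.33, PEBP1 at -0.090 and KISS1R at 0.052. KISS1 (-0.0013), CD82 (0.0031), MAP2K4 (0.0061) and NME1 (-0.0064) differed by less than 0.01 in size. For CD82 and MAP2K4 the medians near 0 averaged probe sets of opposite sign, -0.066 and 0.073 for CD82 and -0.17 and 0.18 for MAP2K4. The median SD between the probe sets of a gene was 0.22 in this comparison. No interval can be given from 1 array each.

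**Figure D3:**
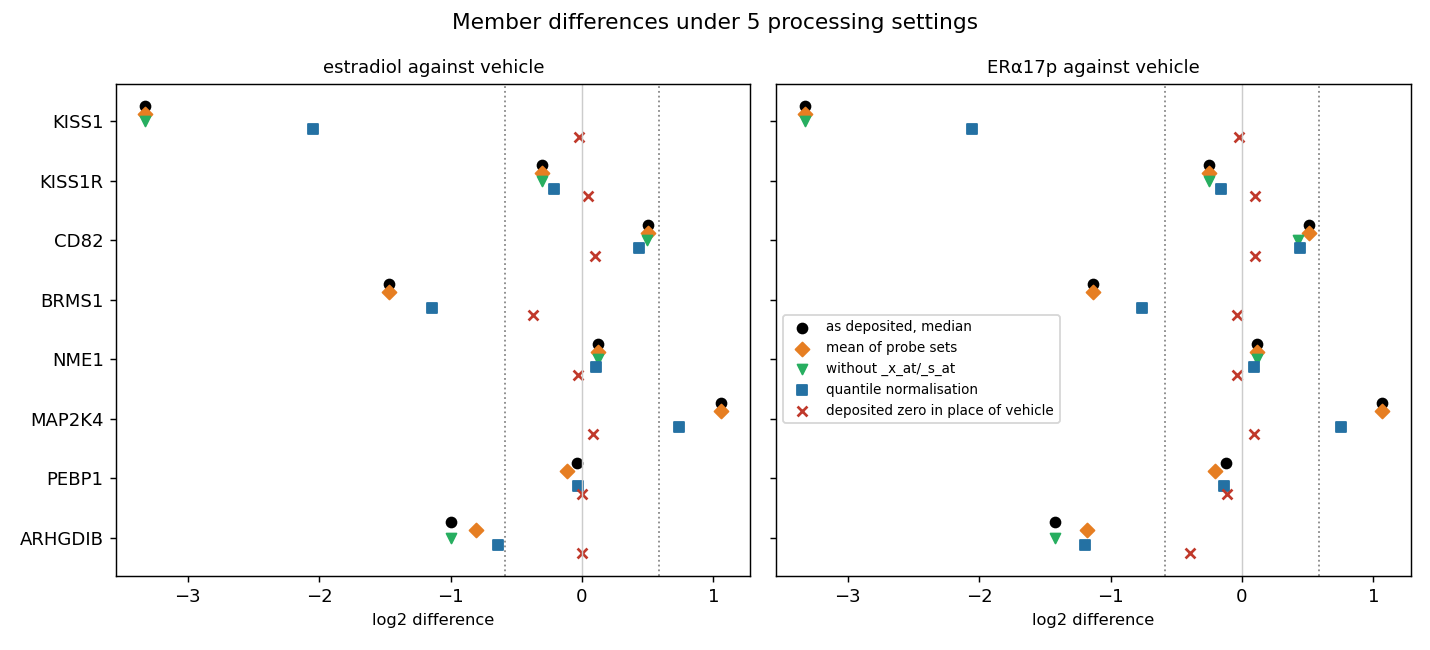
Log2 difference of each member for estradiol (left) and ERα17p (right) against vehicle under 5 settings: the median and the mean of probe sets, without _x_at and _s_at probe sets, after quantile normalisation, and with the deposited zero in place of the vehicle array. Dotted lines mark 1.5-fold. KISS1 moves from -3.32 to -2.05 (estradiol) and -2.06 (ERα17p) after quantile normalisation, and no member passes 1.5-fold against the deposited zero.

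With the deposited zero in place of the vehicle array, none of the 8 members passed 1.5-fold on either treated array. KISS1 was then at -0.019 and -0.020, BRMS1 at -0.37 and -0.039, ARHGDIB at 0 and -0.39, and MAP2K4 at 0.086 and 0.092. Since what the zero stands for is not described, this does not say which array differs from untreated cells.

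By the distance between pairs of differences from vehicle, the genes most like KISS1 over the 3 arrays were RPL27A (distance 0.17), RPL38 (0.19), LINC01296 (0.50), EGR1 (0.86) and ZNF114 (1.01). RPL27A and RPL38 encode ribosomal proteins and have near-identical pseudogene copies, so their signal cannot be assigned with certainty; RPL38 was at -3.47 and -3.45 but had a probe set at 0.084 and 0.13. EGR1, an immediate early transcription factor, was at -2.89 and -2.58. ZNF114, a zinc finger gene, was at -2.46 and -2.80.

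Kisspeptin binding activates Gq and G11, phospholipase C-beta and calcium release through inositol trisphosphate receptors. Of 15 measured genes of this list, 3 passed 1.5-fold upward and 3 downward with estradiol, and 2 were higher and 3 lower with ERα17p, with medians of -0.17 and -0.19. These are 20% higher and 20% lower with estradiol, beside 10.6% and 8.42% of all genes, and 13.3% and 20% with ERα17p, beside 9.56% and 8.82%. PLCB4, a phospholipase C-beta, was at -2.15 and -1.71 from vehicle, with both probe sets at -1.38 or below, and PLCB3 was at -0.80 and -0.72. RGS2, which switches off Gq, was at -1.48 and -1.40, and RGS4, of the same family, at 1.48 and 1.65. ITPR1, a calcium release channel, was at 1.02 and 0.76, but its 5 probe sets ran from -0.90 to 1.55 with estradiol. ARRB1, an arrestin that binds phosphorylated receptors, was at 0.72 and 0.53 (named, like all called genes beyond the first 4 of a list, after its value was seen).

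Among 13 measured factors and proteases linked to KISS1 expression or to cutting of kisspeptin, 2 were higher with estradiol (15.4%, beside 10.6% of all genes), 3 with ERα17p (23.1%, beside 9.56%) and 0 lower. MED23, a Mediator subunit tied to KISS1 expression, was at 0.88 and 0.86, with probe sets from 0 to 1.69 with estradiol. MMP14, a membrane matrix metalloproteinase, was at 0.74 and 0.82, and PCSK5, a proprotein convertase, at 0.52 and 0.72. The probe sets of PCSK5 ran from -0.17 to 0.99 with estradiol and from 0.36 to 1.42 with ERα17p. MMP9, a gelatinase, was at -0.54 and -0.29. The list medians were -0.019 and 0.0090. In the 11 measured genes of RFamide and galanin ligands and receptors, relatives of the kisspeptin system, 0 were higher and 2 were lower with estradiol (18.2%, beside 8.42%): the ligand genes NPFF (-0.90) and GAL (-0.62). With ERα17p the 2 stood at -0.52 and -0.55, and 0 of 11 passed 1.5-fold.

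**Figure D4:**
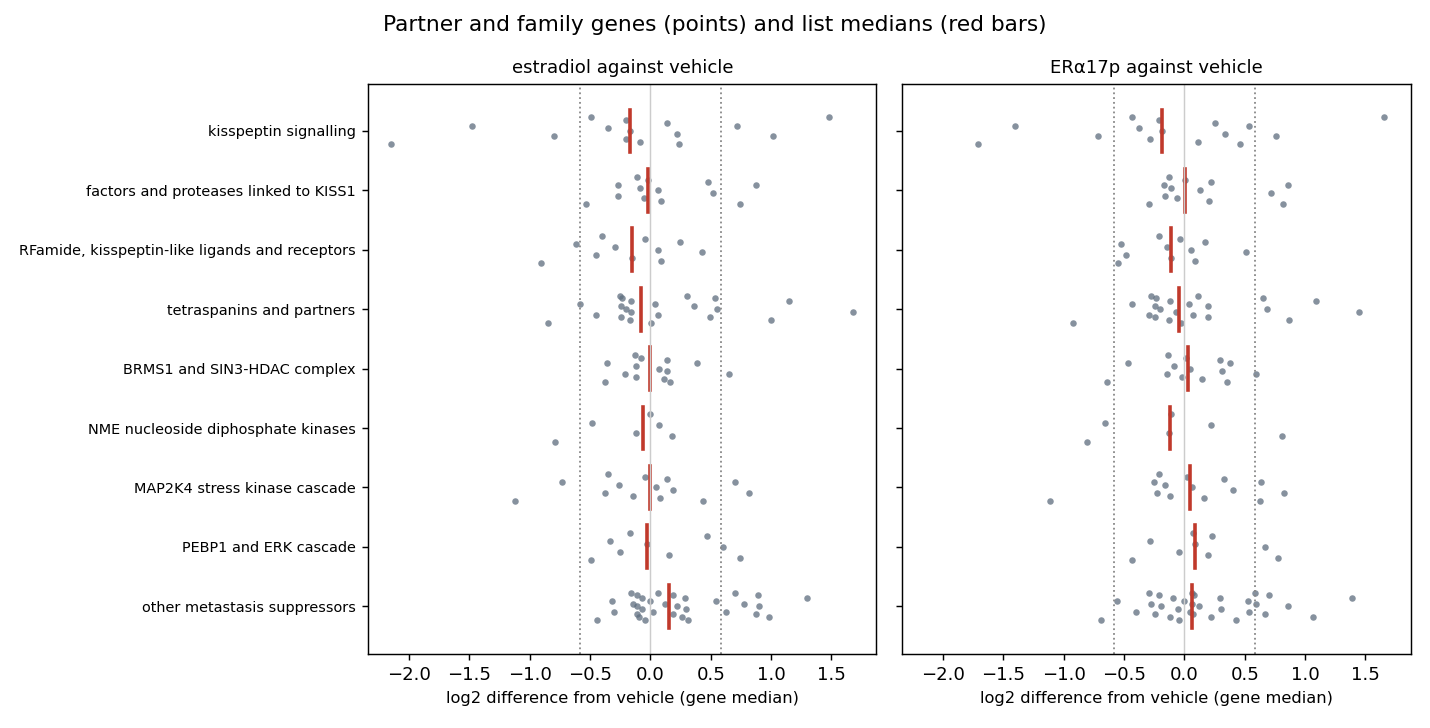
Log2 difference from vehicle of each measured gene (points) in 9 lists of partner and family genes, for estradiol (left) and ERα17p (right). Red bars are list medians, which lie between -0.19 and 0.15, and dotted lines mark 1.5-fold. In most lists points lie on both sides; PLCB4 (-2.15 with estradiol and -1.71 with ERα17p) lies farthest to the left.

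Of 22 measured tetraspanins and partners around CD82, 3 were higher (13.6%) and 2 lower (9.09%) with estradiol, near the 10.6% and 8.42% of all genes. With ERα17p 5 were higher (22.7%) and 1 lower (4.55%), beside 9.56% and 8.82% of all genes. TSPAN6 was at 1.68 and 1.45, TSPAN8 at 1.15 and 1.09, and TSPAN1 at 0.999 and 0.68. CD151, a tetraspanin that binds laminin-binding integrins, was at -0.85 and -0.93, and TSPAN12 at -0.59 and -0.43. The probe sets of TSPAN12 ran from -0.74 to 0.055 with estradiol and from -0.70 to 0.32 with ERα17p. With ERα17p, TSPAN13 (0.65) and PTGFRN (0.87), a partner of tetraspanins, passed 1.5-fold as well. The list medians were -0.076 and -0.048.

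Of 14 measured complex partners of BRMS1, 1 was higher and 0 lower with estradiol, and 1 higher and 1 lower with ERα17p, with medians of -0.0036 and 0.029. In this list 1 gene is 7.14%. With estradiol the shares were 7.14% higher and 0% lower, beside 10.6% and 8.42% of all genes. With ERα17p they were 7.14% each, near the 9.56% and 8.82% of all genes. RBBP7, a histone-binding subunit, was at 0.66 and 0.59, and SIN3B, a scaffold, at -0.36 and -0.64. After quantile normalisation RBBP7 was at 0.55 and 0.47, below 1.5-fold. By the larger of its differences from vehicle, ING2 (-0.38 and -0.47) came next, followed by SAP130 (0.39 and 0.31). The 2 probe sets of ING2 had opposite signs in each comparison. In the NME family beside NME1, 1 of 6 was lower with estradiol (NME3, -0.79), 16.7% beside 8.42% of all genes, and 0 higher. With ERα17p NME3 (-0.80) and NME4 (-0.66) were lower, 33.3% beside 8.82%, and NME5 (0.81) higher, 16.7% beside 9.56%. Each of these genes has 1 probe set, and in so short a list 1 gene is 16.7%. After quantile normalisation NME4 was at -0.54 with ERα17p, below 1.5-fold. NME8 differed by 0 and 0.22.

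In the stress kinase cascade around MAP2K4, 2 of 14 genes were higher and 2 lower with estradiol, and 3 higher and 1 lower with ERα17p. These are 14.3% each with estradiol, beside 10.6% and 8.42% of all genes, and 21.4% and 7.14% with ERα17p, beside 9.56% and 8.82%. JUN, a target of JNK, was at -1.12 and -1.11, with its 4 probe sets at -0.50 or below. MAP3K7, an upstream kinase, was at 0.70 and 0.63, but its 4 probe sets ran from -0.54 to 1.80 with estradiol and from -0.39 to 1.55 with ERα17p. The JNK gene MAPK9 was at 0.44 and 0.63, with 3 probe sets from -0.29 to 0.96 and from -0.19 to 0.82. After quantile normalisation MAP3K7 (0.56) and MAPK9 (0.56) were below 1.5-fold with ERα17p. ATF2, a substrate of JNK and p38, was at 0.82 and 0.40. MAP3K1 was at 0.19 and 0.82. The scaffold MAPK8IP1 was at -0.74 and 0.066. Around PEBP1, 2 of 9 measured genes of the ERK cascade were higher in each comparison (22.2%, beside 10.6% and 9.56% of all genes). None was lower, beside 8.42% and 8.82%. The 2 were MAP2K1, the kinase of ERK, at 0.74 and 0.77, and ARAF at 0.60 and 0.67, whose 2 probe sets had opposite signs. After quantile normalisation ARAF was at 0.39 and 0.48, which left 1 of 9 higher in each comparison. MAPK3, which encodes an ERK, was at -0.49 and -0.43, and YWHAZ, which encodes an adaptor protein, was at 0.47 and 0.20. The probe sets of YWHAZ ran from -0.14 to 2.09 with estradiol and from 0.076 to 1.86 with ERα17p.

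Of 32 measured further metastasis suppressors, 8 were higher (25%) and 0 lower with estradiol, beside 10.6% and 8.42% of all genes, with a median of 0.15. With ERα17p 6 were higher (18.8%) and 1 lower (3.12%), beside 9.56% and 8.82%, with a median of 0.067. With 1 array a group, these shares have no test. LIFR, a cytokine receptor, was at 0.89 and 1.39, with 5 probe sets from -0.22 to 1.78 for estradiol. TIMP1, a metalloproteinase inhibitor, was at 0.99 and 1.07, and NDRG1, a stress-responsive protein, at 0.90 and 0.70. TIMP2 was at 0.70 and 0.66 and TIMP3 at 0.78 and 0.54, both with probe sets of opposite sign for estradiol. MED23 was at 0.88 and 0.86, and RARRES2, a chemoattractant, at 0.63 and 0.60. AKAP12, a kinase scaffold, was at -0.44 and -0.69. Quantile normalisation left 6 higher with estradiol and 4 with ERα17p, and took TIMP2 to 0.54 and 0.50. TIMP4 was at 1.30 and -0.043, from its 1 probe set.

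Over the 9 lists together, 131 different genes were measured, 8 listed genes being in 2 or more lists. With estradiol 15.3% were higher and 7.63% lower, beside 10.6% and 8.42% of all genes. With ERα17p 16.8% were higher and 6.87% lower, beside 9.56% and 8.82%. After quantile normalisation 24 of the 30 genes called with estradiol and 21 of the 31 called with ERα17p still passed 1.5-fold, and 0 changed sign. Those that fell below it were GAL, TSPAN12, RBBP7, ARAF, TIMP2 and LIFR with estradiol, and PLCB3, ITPR1, TSPAN1, RBBP7, NME4, MAPK9, MAP3K7, ARAF, TIMP2 and RARRES2 with ERα17p. Between the treated arrays 5 were higher with ERα17p: RGS4 (0.81), MAPK8IP1 (0.80), IGSF8 (0.64), NME5 (0.63) and MAP3K1 (0.63), which is 3.82% of the 131 beside 1.29% of all genes. TIMP4 was the 1 that was lower (-1.34), 0.763% beside 2.04%.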

How the data were processed

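Total RNA labelled with biotin was hybridised to the Affymetrix array HG-U133 Plus 2, 1 array for each of 3 groups, per the labels' protocols. The submitters' processing notes name RMA without a version. Since RMA works in log2, the authors' deposited values were read as log2, although no label states the base. The values had a median of 0 on every array, and 7.08% to 8.54% of them were exactly 0, so each probe set had been centred. The sources used here do not say on what.

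Only probe sets paired with 1 symbol were used (41097 of 54675; 1801 had several symbols and 11777 have no name here). Differences between arrays were taken per probe set and their median per gene (Python 3.11.15, pandas 2.3.3), and a gene was called at 1.5-fold. With 1 array per group no test was made, and the precision is limited by the number of arrays. Scripts were tested on simulated data. The members and lists were chosen with earlier results of these data known. All members, up to 4 genes per list with the largest difference from vehicle, and the 5 genes nearest KISS1 were named by rule. Alternatives were quantile normalisation, the mean of probe sets, leaving out _x_at and _s_at probe sets, a 2-fold limit, and the deposited zero in place of vehicle. A further list of genes is not reported here.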

Additional observations from a re-analysis of the deposited data

How the results depend on the processing

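No paired analysis was possible because each group has 1 array and the result comes from no test. The member counts (3 lower, 1 higher in each comparison with vehicle) were the same after quantile normalisation and with the mean of probe sets. Without _x_at and _s_at probe sets, 5 members were left, with 2 lower and 0 higher, since BRMS1, MAP2K4 and PEBP1 had no other probe set. At 2-fold, 2 members were lower with estradiol, as ARHGDIB lay just inside, and 3 with ERα17p; the genes called in either direction fell to 1211 (estradiol), 1152 (ERα17p) and 49 (direct), from 3769, 3636 and 659. With the deposited zero in place of vehicle, 0 members were higher or lower, and 356 and 223 genes were called. Quantile normalisation, which widens both treated arrays as it narrows the vehicle array, raised the direct comparison's count to 1543. The part of this widening in the rise was not tested. Without levels, how far any signal lay above background is unknown.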

Other observations

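None of the measured genes next to KISS1 on chromosome 1 was as far from vehicle as KISS1. In RefSeq order, the 3 nearest measured genes on one side were ERLNC1 (-0.051 with estradiol and -0.076 with ERα17p), ETNK2 (-0.72 and -0.49) and SOX13 (0.27 and 0.25). On the other side were GOLT1A (0.14 and -0.14), PLEKHA6 (-0.79 and -1.01) and LINC00628 (0.019 and 0.093). ETNK2, an ethanolamine kinase, passed 1.5-fold with estradiol, and PLEKHA6, a pleckstrin homology protein, with both treatments. KISS1 stood at -3.32 in each comparison. These neighbours were named after the values of KISS1 were seen.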
